A study of Mus musculus with 27 samples.

Results

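The messenger RNA of 10 genes was followed in mouse embryonic fibroblasts with and without the protein kinase PKBalpha, before and after gamma irradiation. The genes sense DNA double-strand breaks (Atm, Atr, Nbn), pass the signal to the cell cycle (Chek1, Chek2) or join broken ends (Xrcc5, Xrcc6, Prkdc, Xrcc4, Lig4). Every probe set annotated to one of these symbols alone was taken, which gave 19 probe sets for 10 of the 18193 genes on the array. Each gene was read from its brightest probe set, and all 10 genes lay above the background intensity of 69.9 on all 27 arrays. That background is the highest value of the probe sets for Y-linked genes in these female cells.

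The 9 groups, of 3 arrays each, came from 3 lines. The line labelled R is a PKBalpha knockout that was reconstituted with PKBalpha, per the labels, the knockout line lacks PKBalpha, and the wild-type line is the control for both. Each line was taken 4 h after 10 Gy of gamma rays, 24 h after it, or untreated, and all cells were female, at passage 45 and grown in medium with 10% serum. Groups follow the sample titles, since the descriptions of the irradiated wild-type samples call them untreated. Per the series' design text the 3 samples of a group are biological replicates. Each genotype is 1 line, so they measure the spread within a line, and a difference between lines cannot be told apart from a difference between any 2 lines of fibroblasts. How PKBalpha was put back, from which promoter and in how many clones, is not given in the sources used here.

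A double-strand break is bound by the MRE11, RAD50 and NBN complex, which recruits and activates the kinase ATM, while single-stranded DNA at resected ends and stalled forks activates the kinase ATR. ATM acts largely through CHEK2 and ATR through CHEK1, and both checkpoint kinases hold back entry into the next phase of the cell cycle. In non-homologous end joining, the Ku ring of XRCC5 and XRCC6 binds the ends and draws in the catalytic subunit encoded by Prkdc, after which XRCC4 and LIG4 seal the break. These proteins are controlled to a large extent by phosphorylation, which arrays of messenger RNA do not measure.

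A pair of promoter sequences is shown because these genes carry the main results: Chek1 was the member with the largest change after irradiation, and Xrcc5 the one with the largest difference between line R and the knockout. Both are the bases just before the annotated start of the gene, from RefSeq on build GRCm38.p6, printed along the strand of the gene. The Chek1 window lies at chr9:36726659-36726908 on the minus strand, and the Xrcc5 window at chr1:72307171-72307416 on the plus strand. Capitals mark a match to the CCAAT box of the factor NF-Y, here on the opposite strand.
Chek1: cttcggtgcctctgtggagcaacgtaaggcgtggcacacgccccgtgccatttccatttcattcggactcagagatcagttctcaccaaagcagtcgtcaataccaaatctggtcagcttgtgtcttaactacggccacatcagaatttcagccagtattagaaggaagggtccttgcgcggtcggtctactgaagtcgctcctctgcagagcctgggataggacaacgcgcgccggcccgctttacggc
Xrcc5: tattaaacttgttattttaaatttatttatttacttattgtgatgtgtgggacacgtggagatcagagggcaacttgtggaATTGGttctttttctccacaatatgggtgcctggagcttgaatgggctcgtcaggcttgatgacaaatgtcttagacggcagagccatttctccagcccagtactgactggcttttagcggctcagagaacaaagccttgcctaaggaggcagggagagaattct
The 250 bases before the start given in each promoter entry were searched on both strands for 4 motifs, in 9 windows of the 8 members with an entry, which leaves out Prkdc and Nbn. CCAAT was found for Atm, Chek2 and Xrcc5 and occurs in 33.8% of 32851 promoter windows, and the SP1 motif GGGCGG was found for Atm, Atr, Lig4, Xrcc4 and Xrcc6 and occurs in 32.7%. The E2F motif TTTNGCGC (1.13% of windows) and the CREB and ATF motif TGACGTCA (1.55%) were in none of the members' windows. The Chek1 window held none of the 4 motifs. A match is a run of letters and was not tested for binding. Of the 9 windows, 6 overlap another annotated gene. The searched windows of Atm, Chek2, Xrcc5 and Xrcc6 and a window of Lig4 also reach into the annotated gene itself, that of Xrcc6 wholly.

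Akt1, which encodes PKBalpha, had intensities of 6.25 to 41.9 in line R and 2.35 to 65.5 in the knockout, against 2981 to 4546 in the wild type. The 9 arrays of line R were thus below background for Akt1, as were those of the knockout, and whether this probe set would detect the reintroduced sequence is not given in the sources used here, so the name line R is used as a label. The Gapdh control probe sets set 5 arrays apart, with log2 ratios of the 3′ to the 5′ end of -0.19 to 0.16, against -0.47 to -0.30 on the other 22 arrays. They are line R untreated replicate 1 and 24 h replicate 2, knockout untreated replicate 2, and wild-type untreated replicate 2 and 4 h replicate 0, so 1 of 9 arrays at 4 h, 1 of 9 at 24 h and 3 of 9 untreated arrays are among them. Array medians ran from an intensity of 54.4 to 80.0. By their mean level over all arrays, all 10 fibroblast markers were above background. This held for 0 of 5 epithelial and 0 of 3 skeletal muscle markers, 1 of 4 endothelial markers (Kdr) and 1 of 5 blood cell markers (Cd14). The split was less clean by group, since the lowest group means of the fibroblast marker Lum (46.4) and of Kdr (25.7) were below background. The highest group means of the epithelial markers Epcam (92.4), Krt8 (112) and Krt19 (97.1) were above it. So were those of the blood cell marker Cd68 (107) and the skeletal muscle marker Des (137). The summed intensity of the blood cell markers was 177 to 267 in line R and 292 to 485 in the knockout, against 711 to 1449 in the wild type, with Ptprc, Itgam and Cd3e below background. That of the endothelial markers was 79.1 to 114 in line R and 50.6 to 132 in the knockout, against 246 to 657 in the wild type. Their part in the differences between lines was not tested. In such bulk samples, fewer cells of a type and less RNA per cell cannot be told apart.

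**Figure D1:**
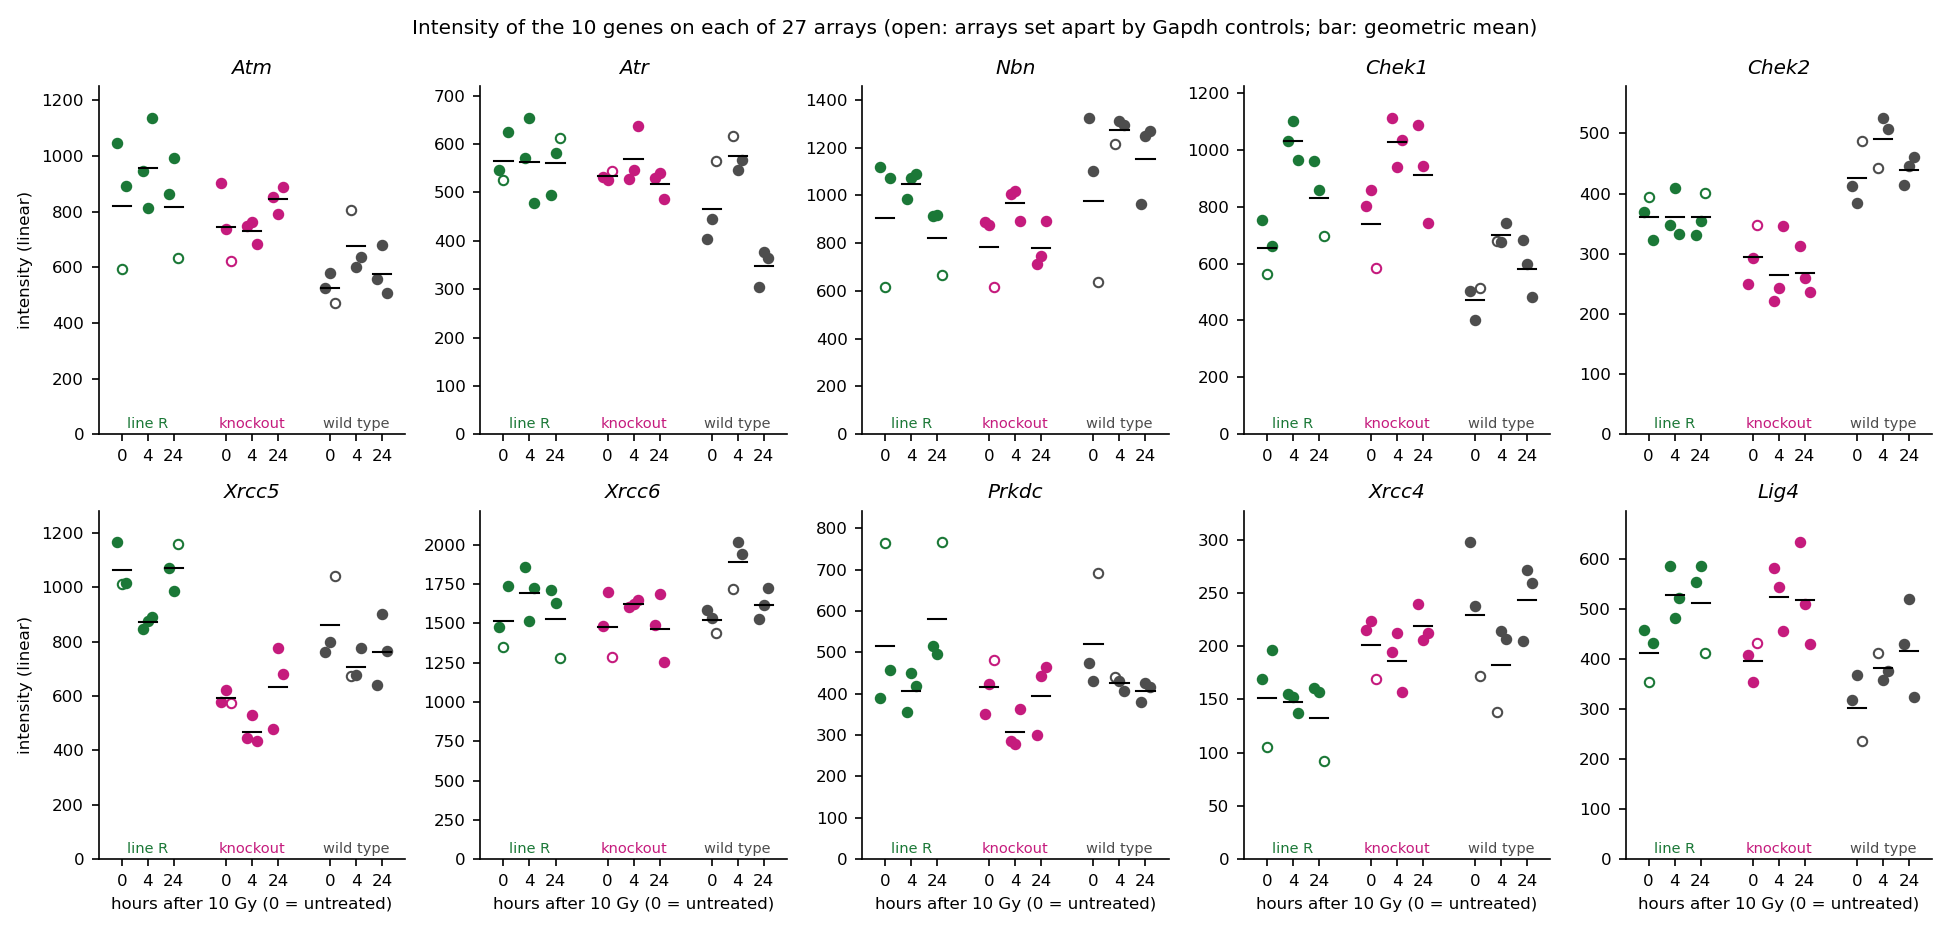
Intensity of each of the 10 genes (vertical axis, linear, starting at 0) on each of the 27 arrays, by line and by hours after 10 Gy (0 is untreated). Open points are the 5 arrays set apart by the Gapdh controls and black bars are geometric means of 3 arrays. Xrcc5 is higher on all 9 arrays of line R than on any of the knockout, and Chek1 is higher on all 3 arrays at 4 h than on the 3 untreated arrays within each line.

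Lines were compared by 9 arrays against 9, averaged over untreated, 4 h and 24 h cells. Xrcc5 and Chek2 had 3 different levels in the 3 lines, Chek1, Atm, Atr and Lig4 were higher in both line R and the knockout than in the wild type, and Xrcc4 was lower in line R than in the other lines. Xrcc6 was the gene that passed in none. The share of all genes that passed in at least 1 of the 3 comparisons was not counted, and the shares below are for single comparisons. In line R against the wild type 5 genes were higher and 2 lower, in the knockout against the wild type 4 were higher and 3 lower, and in line R against the knockout 3 were higher and 1 lower, at an adjusted p below 0.05 (limma, Benjamini-Hochberg over all 18193 genes, two-sided). Differences of this size were common between these lines. Over all genes 34.1% were called in line R against the wild type (18.1% higher, 16% lower), 33% in the knockout against the wild type (15.5% higher, 17.5% lower) and 17.1% in line R against the knockout (10.2% higher, 6.93% lower). Each pair of these comparisons shares the 9 arrays of a line. The median difference of the 10 genes was 0.23 in line R against the wild type, -0.12 in the knockout against the wild type and 0.10 in line R against the knockout, where the medians over all genes were 0.04, -0.02 and 0.06. The split over all genes depended on the scaling: in the knockout against the wild type 2813 genes were higher and 3189 lower, but 4275 and 2155 with equal array medians, and in line R against the knockout 1857 were higher and 1261 lower, but 974 and 2035 with equal array medians.

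Among the sensors, Atm, the kinase that starts the response to double-strand breaks, had intensities with a lowest, median and highest value of 593, 892 and 1138 in line R, 624, 764 and 903 in the knockout, and 473, 579 and 807 in the wild type. The ranges overlapped, with most of the wild-type arrays at the low end. Atm was 0.55 ± 0.12 higher on the log2 scale in line R than in the wild type (SE of the model, n = 9 each, limma adjusted p = 0.0010) and 0.39 ± 0.12 higher in knockout than in wild-type cells (limma adjusted p = 0.015). Line R exceeded the knockout by 0.16 (95% interval -0.09 to 0.41, limma adjusted p = 0.44). A second, dimmer probe set for Atm gave 0.41 (limma adjusted p = 0.013 over all probe sets) and 0.32 (limma adjusted p = 0.058) for the same comparisons with the wild type.

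Atr, the kinase that responds to single-stranded DNA, had 477, 570.2 and 655 as its lowest, median and highest intensities in line R, 485, 531 and 637 in the knockout, and 305, 445 and 616 in the wild type. The wild type spread most, its 3 arrays at 24 h being the lowest of the 27. The difference was 0.31 ± 0.08 in line R against the wild type (limma adjusted p = 0.0052) and 0.25 ± 0.08 in the knockout against the wild type (limma adjusted p = 0.023). The adjusted p of the knockout comparison was 0.053 to 0.055 without wild-type untreated replicate 0, wild-type 24 h replicate 0 or knockout 4 h replicate 2. A second Atr probe set gave 0.53 (limma adjusted p = 0.0028 over all probe sets) and 0.35 (limma adjusted p = 0.045). Neither call was made in the mean of all 3 Atr probe sets, the dimmest of which was below background on all arrays (0.60, limma adjusted p = 0.080 in line R and 0.38, limma adjusted p = 0.30 in the knockout). The knockout call was also lost when adjusted over all probe sets (limma adjusted p = 0.051).

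Nbn, the subunit that ties the MRE11 complex to ATM, had 618, 984 and 1117 as its lowest, median and highest intensities in line R, 616, 890.4 and 1018 in the knockout, and 636, 1246 and 1325 in the wild type. The knockout was below the wild type, with a log2 difference of -0.42 ± 0.14 (limma adjusted p = 0.025), and line R differed from the wild type by -0.29 (95% interval -0.59 to 0.00, limma adjusted p = 0.12). On all 5 arrays set apart by the Gapdh controls Nbn was the lowest of its group of 3, and without them the difference of line R from the wild type had an adjusted p of 0.015 in limma. The knockout difference was not called without wild-type untreated replicate 0 or 1 or knockout untreated replicate 2 (limma adjusted p = 0.050 to 0.061), nor with equal array medians (-0.23, limma adjusted p = 0.37).

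Of the checkpoint kinases, Chek2, the main target of ATM, had intensities of 323, 354 and 410 (lowest, median and highest) in line R, 221, 260 and 349 in the knockout, and 384, 445 and 526 in the wild type. Every knockout array lay below every wild-type array, as was the case for 10.5% of all genes in either direction. The 3 lines fell in the order wild type, line R, knockout, and each step was called: -0.32 ± 0.10 in line R against the wild type (limma adjusted p = 0.013), -0.71 ± 0.10 in the knockout against the wild type (limma adjusted p = 6e-06) and 0.39 ± 0.10 in line R against the knockout (limma adjusted p = 0.0070). The last had an adjusted p of 0.084 with equal array medians. The geometric mean was 275 in the knockout, 0.61 times the 451 of the wild type.

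Chek1, the main target of ATR, ran the other way, with intensities of 562, 858 and 1100 (lowest, median and highest) in line R, 583, 940.4 and 1113 in the knockout, and 403, 598 and 742 in the wild type. It was 0.52 ± 0.10 higher in line R (limma adjusted p = 0.00048) and 0.62 ± 0.10 higher in the knockout (limma adjusted p = 7.6e-05), each against the wild type, or 1.43 and 1.53 times as high. Line R differed from the knockout by -0.10 (95% interval -0.32 to 0.12, limma adjusted p = 0.60). Its other 2 probe sets with signal, the dimmer of them above background on 19 of 27 arrays, gave 0.80 (limma adjusted p = 0.0059 over all probe sets) and 0.77 (limma adjusted p = 0.0070) for the knockout, and 0.42 (limma adjusted p = 0.16) and 0.35 (limma adjusted p = 0.24) for line R, each against the wild type. The mean over all 5 Chek1 probe sets, 2 of which were dim on all arrays, gave an adjusted p of 0.17 in line R and 0.055 in the knockout.

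In end joining, Xrcc5, the larger Ku subunit, set the 3 lines apart. Its intensity was 847 to 1165 in line R with a median of 1014, 436 to 776 in the knockout with a median of 573, and 642 to 1043 in the wild type with a median of 765. All 9 arrays of line R exceeded all 9 of the knockout, which held for 3.43% of all genes in either direction. The order line R, wild type, knockout was called at each step, with 0.36 ± 0.09 in line R against the wild type (limma adjusted p = 0.0046), -0.47 ± 0.09 in the knockout against the wild type (limma adjusted p = 0.00053) and 0.83 ± 0.09, or 1.78 times, in line R against the knockout (limma adjusted p = 4.1e-06). The knockout step had an adjusted p of 0.058 with equal array medians.

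Xrcc6, the other Ku subunit, was not called in any of these comparisons. It had intensities of 1280.1 to 1858 in line R, 1257 to 1699 in the knockout and 1439.8 to 2016 in the wild type, ranges that overlapped over most of their width. The differences were -0.08 in line R against the wild type (95% interval -0.25 to 0.09), -0.13 in the knockout against the wild type (95% interval -0.30 to 0.04) and 0.05 in line R against the knockout (95% interval -0.12 to 0.22). The 2 subunits act as 1 ring, and only the messenger RNA of Xrcc5 passed the test between these lines. A test of whether the 2 genes differ in their differences was not made.

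Prkdc, the kinase subunit that Ku recruits, had 357, 456 and 766 as its lowest, median and highest intensities in line R, 278, 364 and 482 in the knockout, and 379, 431 and 692 in the wild type. It was called higher in line R than in the knockout (0.42 ± 0.14, limma adjusted p = 0.041). Line R differed from the wild type by 0.14 (95% interval -0.15 to 0.43) and the knockout from the wild type by -0.28 (95% interval -0.57 to 0.01), neither of which was called. On all 5 arrays set apart by the Gapdh controls Prkdc was the highest of its group of 3, the opposite of Nbn, Xrcc6 and Xrcc4, which were the lowest on all 5. Without these arrays the Prkdc difference was 0.30 (limma adjusted p = 0.056). It was not called without any 1 of 9 arrays. These were line R untreated replicate 1, 4 h replicates 1 and 2 and 24 h replicate 2, and knockout untreated replicates 0 and 1, 4 h replicates 0 and 1 and 24 h replicate 0 (limma adjusted p = 0.060 to 0.092).

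Of the ligation partners, Xrcc4, the scaffold of the ligase, had 91.7, 155 and 196 as its lowest, median and highest intensities in line R, 157, 212 and 239.8 in the knockout, and 138, 214 and 297 in the wild type. It was 0.59 ± 0.15 lower in line R than in the wild type (log2 difference -0.59, limma adjusted p = 0.0032) and 0.49 ± 0.15 lower in line R than in the knockout (-0.49, limma adjusted p = 0.026), and the knockout differed from the wild type by -0.11 (95% interval -0.42 to 0.20). The call against the knockout was lost without any 1 of line R untreated replicate 1, 4 h replicate 2 or 24 h replicate 2, or knockout untreated replicates 0 and 1, 4 h replicate 1 or 24 h replicate 0 (limma adjusted p = 0.050 to 0.057). A second Xrcc4 probe set gave -0.46 (limma adjusted p = 0.15 over all probe sets) and -0.44 (limma adjusted p = 0.25).

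Lig4, the ligase itself, was higher in both line R and the knockout than in the wild type. Its lowest, median and highest intensities were 353, 481 and 586 in line R, 353, 455 and 632 in the knockout, and 236, 368 and 519 in the wild type. It was 0.40 ± 0.11 higher in line R (limma adjusted p = 0.0089) and 0.39 ± 0.11 higher in the knockout (limma adjusted p = 0.012) than in the wild type, and line R differed from the knockout by 0.02 (95% interval -0.22 to 0.26).

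**Figure D2:**
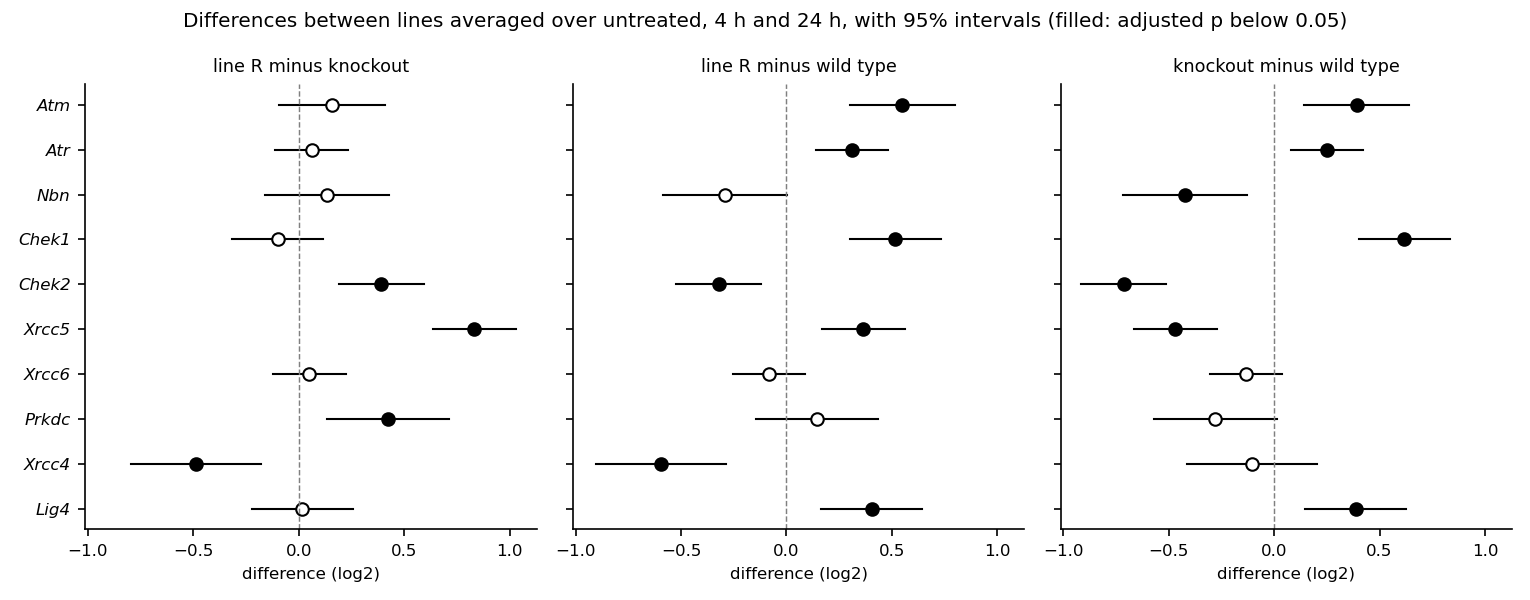
Log2 differences between lines averaged over untreated, 4 h and 24 h cells (horizontal axis) for each gene (vertical axis), with 95% intervals from limma. Filled points passed an adjusted p of 0.05: 4 genes in line R against the knockout, 7 in line R against the wild type and 7 in the knockout against the wild type.

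In untreated cells alone, with 3 arrays a group, 5 of these differences passed. In line R against the wild type only Atm was called (1 of 10 genes, against 18.8% of all genes, 9.39% being higher), at 0.65 ± 0.21, with intensities of 1048, 593 and 892 in line R and 525, 579 and 473 in the wild type (limma adjusted p = 0.033). In the knockout against the wild type 3 were called (17.6% of all genes, 7.77% higher and 9.83% lower), namely Chek1, Chek2 and Xrcc5. Chek1 had 803, 857 and 583 in the knockout and 504, 403 and 513 in the wild type (0.65 ± 0.18, limma adjusted p = 0.015). Chek2 had 249.5, 293 and 349 in the knockout and 412, 384 and 487 in the wild type (-0.53 ± 0.17, limma adjusted p = 0.031). Xrcc5 had 580.0, 622 and 573 in the knockout and 763, 800.2 and 1043 in the wild type (-0.54 ± 0.16, limma adjusted p = 0.026). These 3 genes and Atm did not overlap between knockout and wild type (29.3% of all genes), and Atm and Chek1 did not overlap between line R and the wild type (28.7%). In line R against the knockout Xrcc5 was called (1 of 10, against 3.79% of all genes, 2.18% being higher), with 1165, 1014 and 1015 in line R and 580.0, 622 and 573 in the knockout, a difference of 0.85 ± 0.16 (limma adjusted p = 0.0056) and no overlap (17.5% of all genes). When only the compared arrays were fitted, none of the 5 passed (limma adjusted p = 0.19 to 0.27). Leaving out 1 array ended each call but that of Xrcc5 in line R against the knockout. This held for Atm without line R replicate 0 or 2 or wild-type replicate 0 or 2 (limma adjusted p = 0.078 to 0.18) and for Chek1 without knockout replicate 0 or 1 or wild-type replicate 1 (0.066 to 0.083). It held for Chek2 without knockout replicate 0 or 1 or wild-type replicate 0 or 2 (limma adjusted p = 0.061 to 0.16), and for Xrcc5 in the knockout without knockout replicate 0 or 2 or wild-type replicate 2 (0.066 to 0.13). That last call was also lost without the 5 arrays set apart (-0.38, limma adjusted p = 0.21).

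After irradiation none of the 10 genes passed the test within a line, at 4 h or at 24 h. At 4 h the share of all genes called was 0.978% in line R, 0.368% in the knockout and 3.25% in the wild type, and at 24 h it was 0% in line R, 0% in the knockout and 0.0495% in the wild type. Of the 60 tests of a member in limma, 7 had an unadjusted p below 0.05, and 3 of these were Chek1 at 4 h. Of all 18193 genes, 2677 had such a p at 4 h in line R, 2358 in the knockout and 3085 in the wild type. At 24 h these numbers were 830, 1064 and 1745. In the wild type Cdkn1a, the p53 target that halts the cycle, was higher at 4 h by 1.85 ± 0.39 (limma adjusted p = 0.015). In line R its difference was 0.35 (limma adjusted p = 0.73) and in the knockout -0.01 (limma adjusted p = 0.995). The responses of line R and of the knockout at 4 h were not called different from that of the wild type (limma adjusted p = 0.66 and 0.54). At 24 h the Cdkn1a differences were 1.18 in line R, 0.69 in the knockout and 1.65 in the wild type (limma adjusted p = 0.91, 0.88 and 0.15). Averaged over the lines, a comparison added after the values were seen, Cdkn1a was called higher at 24 h (1.17 ± 0.22, limma adjusted p = 0.022).

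Chek1 had the largest difference of the 10 genes at 4 h in each line, though it passed in none. In line R it had intensities of 1031, 1100 and 964 at 4 h and 752, 562 and 662 in untreated cells. In the knockout it had 1113, 940.4 and 1035 at 4 h and 803, 857 and 583 in untreated cells. In the wild type it had 679, 677 and 742 at 4 h and 504, 403 and 513 in untreated cells. All 3 irradiated arrays exceeded all 3 untreated arrays in each line, a separation in either direction that 20.7% of all genes showed in line R, 24.4% in the knockout and 21.2% in the wild type. The differences were 0.66 ± 0.18 in line R (limma adjusted p = 0.083), 0.48 ± 0.18 in the knockout (limma adjusted p = 0.24) and 0.57 ± 0.18 in the wild type (limma adjusted p = 0.089). The call for line R was made in limma with a block for the replicate number (adjusted p = 0.0497), with an intensity trend (adjusted p = 0.04997) and with genes above the median level alone (adjusted p = 0.028), and the last setting also called the wild type (limma adjusted p = 0.033).

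Averaged over the 3 lines, a comparison chosen after the values had been seen, Chek1 was called 0.57 ± 0.10 higher at 4 h than in untreated cells (n = 9 each, limma adjusted p = 0.0012), with geometric means of 904 at 4 h and 610 in untreated cells, or 1.48 times. It was called without any 1 of the 18 arrays and without the 5 arrays set apart (limma adjusted p = 0.0061), but not in the mean of all its probe sets (0.30, limma adjusted p = 0.38). A second Chek1 probe set, above background on all 27 arrays, gave 0.90 (limma adjusted p = 0.0094 over all probe sets). The dimmest of the 3 with signal, above background on 19 of 27 arrays, gave 0.99 (limma adjusted p = 0.0046), a value that is no bound, since its means in untreated cells of line R (54.2) and the wild type (42.7) lay below background. By this comparison 2 members were higher and 1 lower, where 6.55% of all genes were called higher and 8.92% lower (1191 and 1622 genes, but 1179 and 1047 with equal array medians). The median difference of the 10 genes was 0.16, and that over all genes -0.03.

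Lig4 was the other member called higher at 4 h in the average, by 0.37 ± 0.11 (limma adjusted p = 0.035). In line R it had 586, 481 and 522 at 4 h and 457, 353 and 431 untreated. In the knockout it had 581, 544 and 455 at 4 h and 407, 353 and 431 untreated. In the wild type it had 411, 357 and 376 at 4 h and 317, 368 and 236 untreated, so that the groups overlapped in the wild type and not in the other lines. The call was lost without the 5 arrays set apart (0.27, limma adjusted p = 0.13). It was also lost without any 1 of line R untreated replicate 1 or 4 h replicates 0 and 2, knockout untreated replicate 1 or 4 h replicates 0 and 1, or wild-type untreated replicate 2 or 4 h replicates 0 and 2 (limma adjusted p = 0.050 to 0.078).

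Xrcc5 was called lower at 4 h in the average, with a log2 difference of -0.30 ± 0.09 (limma adjusted p = 0.036). In line R it had 847, 876 and 891 at 4 h and 1165, 1014 and 1015 untreated. In the knockout it had 446, 529 and 436 at 4 h and 580.0, 622 and 573 untreated. In the wild type it had 673, 679 and 778 at 4 h and 763, 800.2 and 1043 untreated, where 1 irradiated array lay above 1 untreated array. The call was lost without the 5 arrays set apart (-0.26, limma adjusted p = 0.13) and with equal array medians (-0.22, limma adjusted p = 0.22). Leaving out 1 array ended it for 12 of 18 arrays. These were line R untreated replicate 0 and 4 h replicates 0, 1 and 2, knockout untreated replicates 0, 1 and 2 and 4 h replicates 0 and 2, and wild-type untreated replicate 2 and 4 h replicates 0 and 1 (limma adjusted p = 0.050 to 0.080).

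The remaining members did not pass at 4 h in the average. Prkdc differed by -0.36 (limma adjusted p = 0.092), Nbn by 0.30 (0.17), Xrcc6 by 0.20 (0.10), Atm by 0.19 (0.34), Xrcc4 by -0.16 (0.53), Atr by 0.13 (0.32) and Chek2 by 0.02 (0.93), all on the log2 scale. The 95% interval of Chek2 was -0.18 to 0.22, and that of Chek1 was 0.35 to 0.78. Within a line, the 4 h and untreated arrays of Atm and Xrcc6 in the wild type and of Nbn in the knockout did not overlap, all higher at 4 h, beside 21.2% of all genes in the wild type and 24.4% in the knockout without overlap in either direction.

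**Figure D3:**
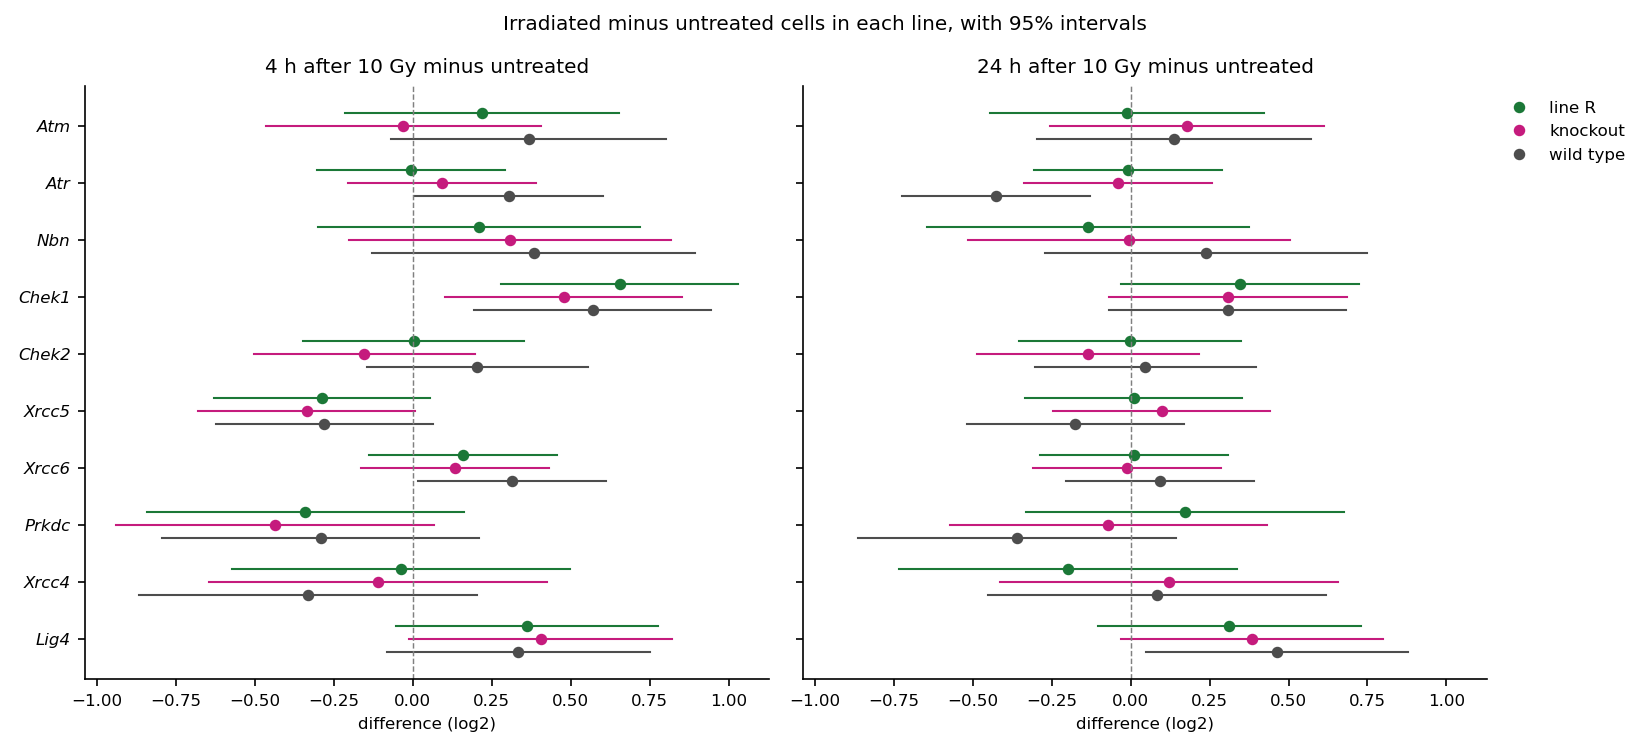
Log2 differences of irradiated from untreated cells (horizontal axis) for each gene (vertical axis) and line, at 4 h (left) and 24 h (right), with 95% intervals from limma. Chek1 at 4 h lies at 0.66 in line R, 0.48 in the knockout and 0.57 in the wild type, with intervals above 0 in each, and none of the 60 differences passed an adjusted p of 0.05.

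At 24 h no member passed against untreated cells in the average of the lines either, where 0.313% of all genes did. Lig4 differed by 0.39 (95% interval 0.15 to 0.63, limma adjusted p = 0.13) and Chek1 by 0.32 (95% interval 0.10 to 0.54, limma adjusted p = 0.17), and these were the 2 of 10 members with an unadjusted p below 0.05. Of all 18193 genes, 2493 had such a p. Chek1 intensities at 24 h were 961, 858 and 698 in line R, 1088, 943 and 741 in the knockout, and 683, 598 and 484 in the wild type, which overlapped those of untreated cells in each line. Atr and Prkdc did not overlap in the wild type, both lower at 24 h than untreated, as 15.8% of all genes did not overlap in either direction. No member was free of overlap at 24 h in line R (9.05% of all genes) or in the knockout (12.1%).

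From 4 h to 24 h a single member was called within a line, Atr in the wild type (1 of 10, lower, against 2.6% of all genes in either direction and 1.49% lower). Its intensities there were 403, 445 and 565 untreated, 616, 546 and 567 at 4 h, and 305, 377 and 364 at 24 h, with no overlap between 24 h and 4 h, as for 23.4% of all genes in either direction. The difference of 24 h from 4 h was -0.73 ± 0.14 (limma adjusted p = 0.010), a ratio of 0.60. In line R it was -0.00 (95% interval -0.30 to 0.29) and in the knockout -0.13 (95% interval -0.43 to 0.16), while 1.57% of all genes were called in line R and 0.0055% in the knockout. No member was called in either, and over the 3 lines 3 of 30 tests in limma had an unadjusted p below 0.05. Of all 18193 genes, 2837 had such a p in line R, 1495 in the knockout and 2826 in the wild type. In line R the arrays at 24 h and 4 h did not overlap for Xrcc5 and Prkdc, higher at 24 h, and for Nbn and Chek1, lower at 24 h (25.1% of all genes), and in the knockout for Atm, higher at 24 h (17.9%). A second Atr probe set gave 0.19 for the wild type (limma adjusted p = 0.85 over all probe sets), and the call was lost in the mean of all Atr probe sets (limma adjusted p = 0.77), with the compared arrays alone (0.23) and without wild-type 4 h replicate 0, an array set apart by its Gapdh ratio (0.057). In the average of the lines, Atr was also the 1 member called, at -0.29 ± 0.08 (limma adjusted p = 0.029, against 10.4% of all genes, 3.92% being lower), and this was lost in the mean of all probe sets (limma adjusted p = 0.52) and when adjusted over all probe sets (limma adjusted p = 0.076). It was also lost without any 1 of line R 4 h replicates 0 and 1 or 24 h replicate 0, knockout 4 h replicate 2 or 24 h replicate 2, or wild-type 4 h replicate 0 or 24 h replicate 0 (limma adjusted p = 0.054 to 0.064).

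**Figure D4:**
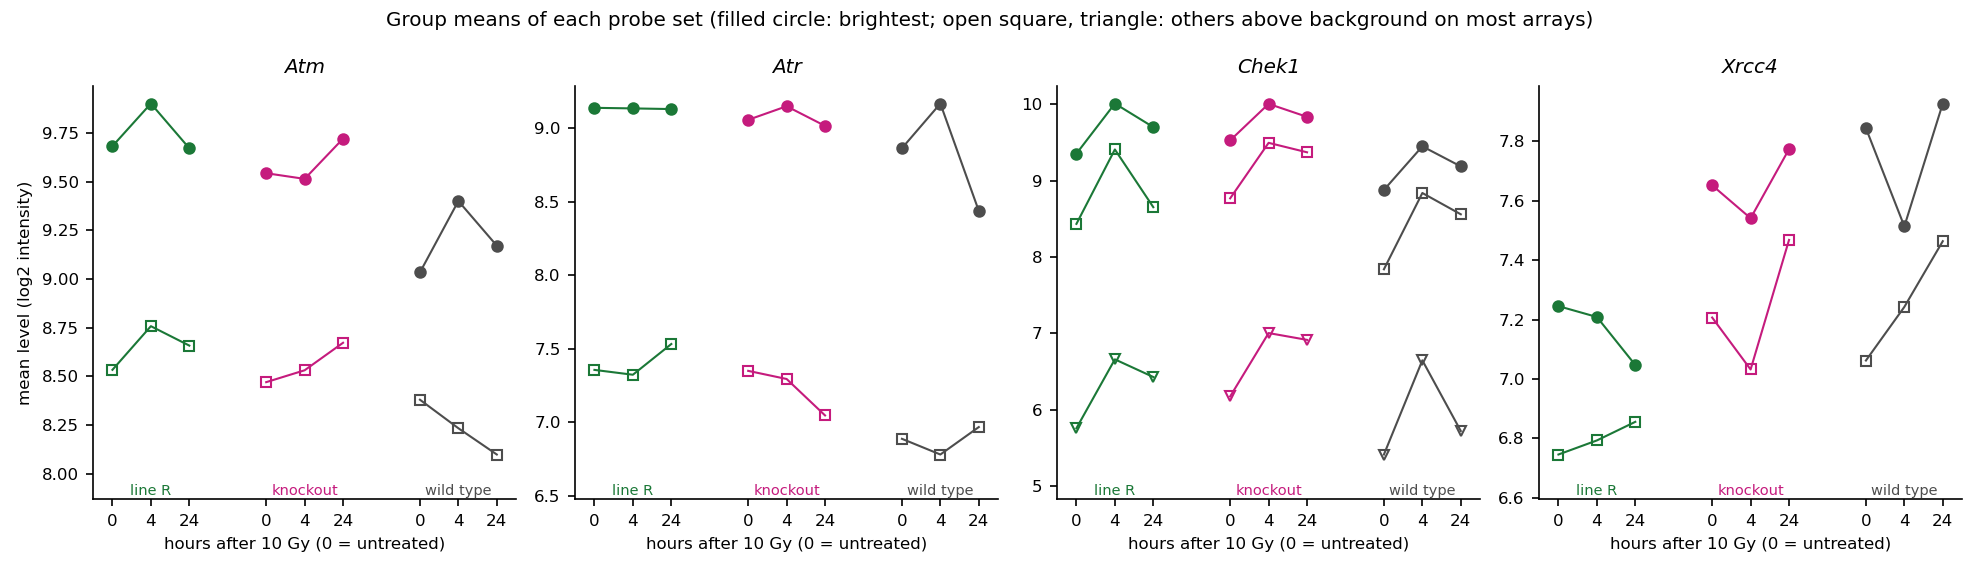
Group means on the log2 scale (vertical axis) of every probe set above background on most arrays, for the 4 genes with more than 1, by line and hours after 10 Gy (0 is untreated). The 3 Chek1 probe sets are highest at 4 h in every line, whereas the second Atr probe set lacks the low value at 24 h that the brightest one shows in the wild type.

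Whether the lines differed in their response was tested with the difference of the differences. None of the 60 tests of a member passed, and none had an unadjusted p below 0.05, where between 0 and 3 of 18193 genes were called per comparison (at 4 h 0.0165% for line R and 0.011% for the knockout against the wild type and 0% for line R against the knockout, at 24 h 0.0055% for each). An unadjusted p below 0.05 in limma was found for 537 to 1083 of the 18193 genes per comparison. The response of Chek1 at 4 h differed by 0.08 (95% interval -0.45 to 0.62) between line R and the wild type and by -0.09 (95% interval -0.62 to 0.44) between the knockout and the wild type. These intervals are wider than the response itself, so the data do not show that the lines respond alike. For Atr at 24 h the differences were 0.42 (95% interval -0.00 to 0.84) for line R and 0.38 (95% interval -0.04 to 0.81) for the knockout, each against the wild type. Both rest on the brightest Atr probe set. The second had geometric means, untreated and at 24 h, of 164 and 185 in line R, 163 and 132 in the knockout, and 118 and 125 in the wild type. By that probe set the knockout fell and the wild type rose.

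Around these 10 genes, the partners of the pathway were read from 3 lists. Of 21 other checkpoint genes, 8 were higher and 1 lower at 4 h in the average of the lines, beside 6.55% of all genes higher and 8.92% lower, with a median difference of 0.31 against -0.03 over all genes. Those higher with the smallest p were Clspn, the adaptor that presents CHEK1 to ATR (0.64 ± 0.08, limma adjusted p = 0.00011), Hus1 of the checkpoint clamp (0.75 ± 0.10, 0.00016), Topbp1, an activator of ATR (0.69 ± 0.10, 0.00029), and Rpa2, which coats single-stranded DNA (0.48 ± 0.08, 0.00077). The 1 lower gene was Cdc25c, a phosphatase that drives mitotic entry (-0.41 ± 0.12, limma adjusted p = 0.022). Without the 5 arrays set apart 7 were higher and 0 lower, where 13.7% of all genes were called in either direction. In the wild type alone 4 of the 21 passed at 4 h, beside 3.25% of all genes in either direction. All were higher, namely Clspn (1.04), Hus1 (0.94), Topbp1 (0.67) and Rpa2 (0.58). Without the 5 arrays set apart 2 passed, Clspn and Cdc25b, beside 2.01% of all genes. From 4 h to 24 h 7 of the 21 were lower and 0 higher in the average, beside 3.92% of all genes lower. Between lines, 6 were higher and 2 lower in line R against the wild type (18.1% and 16% of all genes). Clspn (0.99 ± 0.08, limma adjusted p = 9.6e-09) and Ppm1d (-0.73 ± 0.13, 0.00016) had the smallest p. In the knockout against the wild type 5 were higher and 1 lower (15.5% and 17.5%). There Clspn (0.78 ± 0.08, limma adjusted p = 2.8e-07) and Wee1 (0.74 ± 0.13, 0.00011) had the smallest p.

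Genes of proliferation were read beside these. Of 17 such genes, 12 were higher and 0 lower at 4 h in the average of the lines, with a median of 0.39, and 8 were lower and 0 higher at 24 h than at 4 h. Over all genes 6.55% were higher at 4 h, and 3.92% lower at 24 h than at 4 h. Without the 5 arrays set apart 9 of the 17 were higher at 4 h, and 14 were lower at 24 h than at 4 h. Over all genes 13.7% and 14.3% were then called in either direction. Their summed intensity was 111281 to 119420 on the 9 arrays at 4 h, against 77953 to 105495 on the 9 untreated arrays, with no overlap. At 24 h it was 77273 to 109389. Those higher at 4 h with the smallest p were Rrm2 (0.78 ± 0.09, limma adjusted p = 5.7e-05), Mcm3 (0.54 ± 0.08, 0.00019), Ccne2 (1.58 ± 0.25, 0.00041) and Mcm5 (0.56 ± 0.09, 0.00041). Ccne2 and Rrm2 serve the entry into and the supply of DNA synthesis. Between lines, 6 of the 17 were higher and 1 lower in line R against the wild type (18.1% and 16% of all genes), and 10 higher and 3 lower without the 5 arrays set apart (38.3% of all genes in either direction). In the knockout against the wild type 9 were higher and 1 lower (15.5% and 17.5% of all genes). The part of the proliferation genes in the Chek1 differences was not tested. Of the 10 fibroblast markers, 5 were lower and 0 higher at 4 h in the average, beside 8.92% of all genes lower and 6.55% higher. In that comparison none of the epithelial, endothelial, blood cell or skeletal muscle markers was called.

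Of 13 other sensing and mediator genes, 3 were higher and 1 lower at 4 h in the average, beside 6.55% of all genes higher and 8.92% lower. These were Rnf168, a ubiquitin ligase at breaks (0.40 ± 0.07, limma adjusted p = 0.0011), Rif1 (0.74 ± 0.16, 0.0043) and Paxip1 (0.47 ± 0.13, 0.020), with Trp53bp1, which favours end joining over resection, lower (-0.25 ± 0.08, 0.038). Without the 5 arrays set apart 4 were higher and 0 lower, where 13.7% of all genes were called in either direction, and Trp53bp1 was not called (limma adjusted p = 0.22). Mre11a, the nuclease partner of NBN, was higher in both lines than in the wild type, at 0.82 ± 0.11 in line R (limma adjusted p = 6.7e-06) and 0.78 ± 0.11 in the knockout (limma adjusted p = 1.3e-05). Of the 13, 3 were higher (Mre11a, Rnf8 and Trp53bp1) and 2 lower in line R against the wild type, beside 18.1% of all genes higher and 16% lower. The lower ones were Kat5, with the smallest p of the list (-0.61 ± 0.08, limma adjusted p = 2.0e-06), and Uimc1 (-0.30 ± 0.07, 0.0011). Without the 5 arrays set apart 5 were higher and 2 lower, where 38.3% of all genes were called in either direction. In the knockout against the wild type 3 were higher and 2 lower (Mre11a, Mdc1 and Rnf8 higher, beside 15.5% higher and 17.5% lower). The lower ones were again Uimc1 (-0.21 ± 0.07, limma adjusted p = 0.018) and Kat5 (-0.20 ± 0.08, 0.045).

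Of 11 other end joining genes, 1 was higher and 3 lower at 4 h in the average, beside 6.55% of all genes higher and 8.92% lower. Polq, the polymerase of the alternative pathway, was higher (1.36 ± 0.42, limma adjusted p = 0.031), though its mean level over all arrays was below background and the call was lost without the 5 arrays set apart (0.90, limma adjusted p = 0.20). Paxx, a Ku partner, was lower (-0.52 ± 0.12, limma adjusted p = 0.0068), as were Nhej1, which aligns with XRCC4 (-0.35 ± 0.11, 0.036), and the DNA ligase gene Lig3 (-0.23 ± 0.06, 0.020). Without the 5 arrays 0 were higher and 3 lower, where 13.7% of all genes were called in either direction. Paxx (limma adjusted p = 0.074) and Nhej1 (0.16) were then not called. Those lower were Lig3 (limma adjusted p = 0.049), Tdp1 (-0.31, 0.025) and Aptx (-0.22, 0.033). Between lines, 2 of the 11 were higher and 4 lower in line R against the wild type, beside 18.1% of all genes higher and 16% lower. Those with the smallest p were Tdp1 (-0.68 ± 0.13, limma adjusted p = 0.00021), Xrcc1 (0.58 ± 0.12, 0.00087), Paxx (-0.55 ± 0.12, 0.0012) and Aptx (-0.38 ± 0.09, 0.0018). In the knockout against the wild type 1 was higher and 2 lower, beside 15.5% higher and 17.5% lower. These were Polq (1.18 ± 0.42, limma adjusted p = 0.033), Paxx (-0.86 ± 0.12, 1.0e-05) and Aptx (-0.42 ± 0.09, 0.00077).

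Over the 27 arrays, the closest pairs of the 10 genes were Chek1 and Lig4 (Pearson r of 0.75 on the log2 scale), Atm and Lig4 (0.72) and Xrcc5 and Prkdc (0.70), and the 2 Ku subunits Xrcc5 and Xrcc6 had an r of -0.06. Among 10215 other genes above background, the closest to Chek1 was Wdr75 (0.92), to Xrcc5 Nubpl (0.87), to Chek2 Hspb8 (0.91), to Lig4 Trnt1 (0.92) and to Atr the checkpoint gene Clspn (0.78). These values describe 27 arrays that share the differences between lines and the 5 arrays set apart, and they carry no test.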

How the data were processed

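RNA from 27 samples, 3 in each of 9 groups, was hybridised to Affymetrix mouse expression arrays, 1 array a sample. The values used are the intensities the authors deposited, on a linear scale. RMA and GCRMA are named in the submitters' processing notes, with no role or order. Whether either of them gave these values is not given in the sources used here. The array medians were not equal (54.4 to 80.0). The deposited intensities have a trimmed mean of 500.003 on each array, leaving out 2% at either end, and include values far below background, so their scaling is to 1 common mean. Intensities were put on the log2 scale with no offset. Of 45101 probe sets, 64 controls were left out, 34945 carried 1 symbol, 932 several and 9160 none in the platform annotation, and 34741 matched a RefSeq gene. Each of 18193 genes was read from its brightest probe set over all arrays.

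One limma model (version 3.58.1, R 4.3.3) with a mean for each group was fitted to all 27 arrays (18 residual degrees of freedom), with two-sided tests and Benjamini-Hochberg adjustment over all genes within each comparison, at 0.05. SEs are those of the model. Exact permutation of 3 arrays against 3 cannot go below p = 0.1 and was not used. The members, lists and the choice of the 5 arrays were made with earlier results of these data known, and the average over lines was added after the values were seen. Named genes are all 10 members and, of each other list, up to 4 past the threshold with the smallest p, besides Akt1 and Cdkn1a as checks, and for each member the genes with the highest correlation. For some comparisons a list is given as counts alone. Cdc25c was named as the 1 lower gene of its list after its value was seen. Of the sensing and mediator genes, all that passed in line R or the knockout against the wild type, averaged over times, were named. The background of 69.9 is the highest of 351 values of 13 Y-linked probe sets. The script was tested on simulated data with known changes. Replicate numbers give no stated pairing: arrays with the same number, 108 pairs in all, had deviations from their groups that correlated at -0.72 at the lowest, 0.027 at the median and 0.78 at the highest. The number of arrays limits the precision.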

Additional observations from a re-analysis of the deposited data

How the results depend on the processing

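Counts of called members are over all comparisons of a kind. For irradiated against untreated cells within a line, 0 of 60 were called, and 1 with a block for the replicate number, 1 with an intensity trend and 2 with genes above the median level alone, with 0 whichever array was left out. For 24 h against 4 h, 1 of 30 was called, against 0 with the compared arrays only and 0 with a gene's probe sets averaged, and 0 to 1 with 1 array left out. For untreated lines, 5 of 30 were called, against 0 with the compared arrays only, 2 with equal array medians, 3 with the mean of all probe sets, 2 with each probe set tested and 9 without the 5 arrays set apart, 6 with the replicate block, and 2 to 6 with 1 array left out. For lines averaged over times, 18 of 30 were called, 18 with the replicate block, 12 to 18 under the other settings and 16 to 19 with 1 array left out. For times averaged over lines, chosen after seeing the data, 4 of 30 were called, against 7 with genes above the median level, 1 with the mean of all probe sets, 1 with each probe set tested, 4 with the replicate block, and 1 to 5 with 1 array left out. Differences in response gave 0 of 60 under all settings, with a range of 0 to 0 over arrays left out. The cause of these shifts was not tested. The replicate block changed no other count by more than 1.5 times, and 14 of 27 arrays correlated best with arrays of their own number. Of single results past the threshold, 28 in all, none reversed, and 107 of 684 refits were no longer past it. Equal array medians moved the median of all genes by 0.19 in the knockout against the wild type, averaged over times, by -0.15 in line R against the knockout and by 0.13 at 4 h in the wild type. Under this scaling the split of higher and lower calls at 4 h in the wild type was 230 and 116 genes, against 275 and 317, and at 24 h against 4 h averaged over lines 587 and 1132, against 1175 and 713. In untreated cells it was 2297 and 1277, against 1413 and 1789, for the knockout against the wild type.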

Other observations

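The 3 p53 targets used to check irradiation differed between lines. Cdkn1a, the inhibitor of cyclin-dependent kinases, was lower in line R than in the wild type by a log2 difference of -3.02 ± 0.22 and in knockout against wild-type cells by -2.27 ± 0.22, averaged over untreated, 4 h and 24 h cells (limma adjusted p = 1.2e-09 and 8.0e-08). Ccng1, another p53 target, differed by -1.52 ± 0.13 in line R and -1.69 ± 0.13 in the knockout, and Mdm2, the ubiquitin ligase that restrains p53, by -1.83 ± 0.30 and -1.26 ± 0.30, with limma adjusted p from 1.6e-09 to 0.0026. All 3 genes of this list were called lower in both lines, where 16% of all genes were lower in line R and 17.5% in the knockout. Of the 10 members, Chek1, Atm, Atr and Lig4 were called higher in both lines and Chek2 lower in both. Over all genes 18.1% were higher in line R and 15.5% in the knockout. These shares, like those beside the p53 targets, are for each line alone. The share of all genes called alike in both lines was not counted, and both comparisons use the same wild-type arrays.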
